A study of Solanum tuberosum with 12 samples.

Results

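Proteinase inhibitors, the storage protein patatin, aspartic proteases and globulins were followed in leaves of potato (Solanum tuberosum) cultivar Desiree kept at high or normal temperature. Members were the listed transcripts whose product name holds proteinase inhibitor, protease inhibitor, trypsin inhibitor, cystatin, Kunitz, patatin, aspartic prote or globulin, which gave 65 of the 6438 transcripts on the authors' lists of changes at 3 or 8 weeks. At 3 weeks 18 of the 1447 listed transcripts were members, at 8 weeks 59 of 5571, and 12 members were among the 580 transcripts listed at both ages. By their product names the 65 members were 3 multicystatins, 11 inhibitors of the Kunitz family, 2 potato type I and 7 potato type II inhibitors, 7 other inhibitors, 17 aspartic proteases, 8 patatins and 10 globulins. The Desiree plantlets came from sterile culture, were moved to soil and then stood for 3 or 8 weeks under a day of 12 h and a night of 12 h, at normal temperature (NT, day 22 °C, night 16 °C) or high temperature (HT, day 35 °C, night 29 °C). The groups were therefore NT and HT at 3 weeks and NT and HT at 8 weeks, each with 3 libraries of poly(A) RNA from the upper 5 leaves.

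Proteinase inhibitors block the digestion of proteins by binding the active site of a protease. Plants of the nightshade family hold several families of them, and many are known to be induced in leaves by wounding through systemin and jasmonate, and to accumulate in tubers. Multicystatin joins several cystatin domains, which inhibit cysteine proteases of the papain type, in a single chain. Kunitz family inhibitors of potato act on serine, cysteine or aspartic proteases, and potato type I and type II inhibitors act on serine proteases such as trypsin and chymotrypsin. Patatin is the main storage glycoprotein of the potato tuber and is also a lipid acyl hydrolase.

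Library totals lay between 52514661 and 66602938 counts, and the listed transcripts held 1.76% to 2.61% of them at 3 weeks and 16.22% to 23.15% at 8 weeks. Levels are given as CPM, counts scaled to the same library total, as mean ± SD with n = 3. A log2 change is HT minus NT, with its approximate standard error. A transcript is called where the edgeR quasi-likelihood test gave a Benjamini-Hochberg adjusted p under 0.05 over all tested transcripts of that age. The authors had listed the transcripts on the same comparison of HT with NT, so a call describes these libraries and is not independent evidence. The labels do not say whether the 3 libraries of a group came from separate plants, and the spread behind the p-values is that between libraries, which may be technical. At 8 weeks HT replicate 1 stood apart from the other HT libraries. Transcripts of leaf identity (chlorophyll a/b binding proteins, rubisco small chain and rubisco activase) summed to 57151 CPM in it, 25139 and 28870.1 in HT replicates 2 and 3, and 7871 to 8729 in the NT libraries. At 3 weeks the leaf identity list summed to 5673 to 6447 CPM at NT and to 1901 to 2244 at HT. Of its transcripts 1 rose and 5 fell at 3 weeks, where 60.3% of all tested transcripts rose and 37.2% fell. All 30 rose at 8 weeks, where 59.3% of all tested transcripts rose. The part of the leaf identity list in the differences of the members was not tested.

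At 3 weeks most tested members were lower at HT, and at 8 weeks most were higher. Of the 18 members listed at 3 weeks 16 passed the filter on low counts, of which 12 fell and 2 rose, where 37.2% of all tested transcripts fell and 60.3% rose. Of the 59 members listed at 8 weeks 55 passed the filter, of which 40 rose and 13 fell, where 59.3% of all tested transcripts rose and 38.0% fell. The called shares, 14 of 16 and 53 of 55, stood beside backgrounds of 97.5% and 97.3%, which the authors' listing sets. The median log2 change of the tested members was -1.90 at 3 weeks, where that of all tested transcripts was 1.66, and 3.03 at 8 weeks, where that of all was 1.79. In the authors' deposited table, which needs no filter, 4 members were higher and 14 lower at 3 weeks, and 44 were higher and 15 lower at 8 weeks. The smallest absolute log2 fold change of a member in the authors' deposited table was 1.56 at 3 weeks and 1.62 at 8 weeks, with a listing limit of 1.5. The HT and NT libraries did not overlap for 16 of the 18 members at 3 weeks (89.8% of all listed transcripts) and for 54 of the 59 at 8 weeks (93.4% of all). In whole leaves a lower share of cells of a type and less RNA per cell cannot be told apart.

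**Figure D1:**
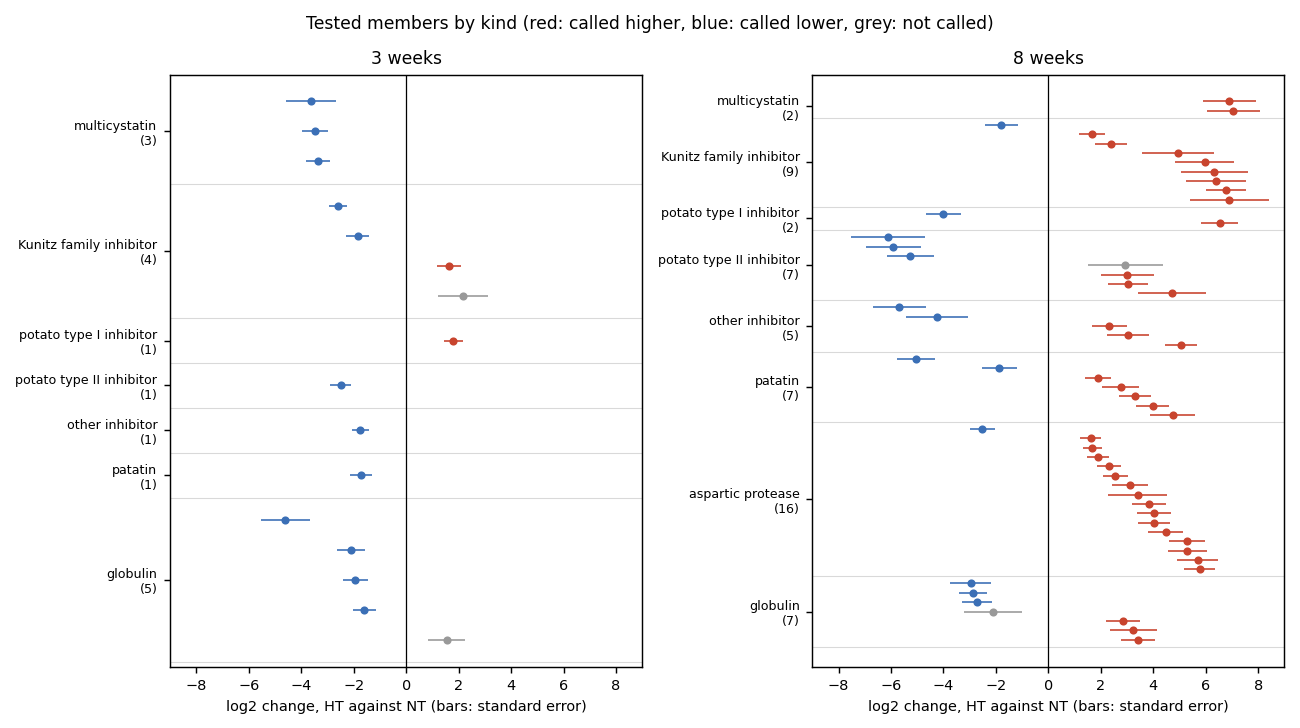
Log2 change of HT against NT (horizontal axis, bars: approximate standard error) for each tested member, grouped by kind with the number tested in brackets, at 3 weeks (left, 16 members) and 8 weeks (right, 55 members). At 3 weeks 12 of the 16 points are called lower, and at 8 weeks 40 of the 55 are called higher, among them 15 of the 16 aspartic proteases. Of all tested transcripts 37.2% were called lower at 3 weeks and 59.3% higher at 8 weeks.

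The summed level of the listed inhibitors was lower at HT at 3 weeks and higher at HT at 8 weeks. The 12 inhibitors listed at 3 weeks summed to 143, 104 and 125 CPM in the NT libraries and to 14.5, 23.8 and 34 CPM in the HT libraries. The 27 inhibitors listed at 8 weeks summed to 195, 207 and 249 CPM at NT and to 1558, 364 and 719.6 CPM at HT. The sums of HT and NT libraries did not overlap at either age, and at 8 weeks HT replicate 1 was the highest. Each summed transcript had been listed for its difference between HT and NT, so the gap between the sums is partly set by the listing. At 3 weeks the 3 multicystatins alone summed to 107, 74.0 and 97.1 CPM at NT and to 4.29, 6.82 and 14.7 CPM at HT. The lists differ between the ages, so the sums are not compared across them. Of the tested inhibitors 2 rose, 7 fell and 1 was not called at 3 weeks, and 17 rose, 7 fell and 1 was not called at 8 weeks. Beside these stand 60.3% higher and 37.2% lower of all tested transcripts at 3 weeks and 59.3% higher and 38.0% lower at 8 weeks, so the count at 8 weeks lies near the background. With DESeq2 size factors, which lower the median of all transcripts by 1.22 and 1.30 on the log2 scale, none rose at 3 weeks and 11 rose at 8 weeks.

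The 3 multicystatins fell at 3 weeks, and the 2 that passed the filter at 8 weeks rose there. Multicystatin PGSC0003DMG400005950 was at 65.5, 44.1 and 59.1 CPM in the NT libraries and at 2.37, 4.18 and 8.65 CPM in the HT libraries at 3 weeks. In the 8-week plants it was at 0.514, 0.675 and 0.784 CPM at NT and at 175, 12.7 and 48.1 CPM at HT. The groups did not overlap at either age, and HT replicate 1 was the highest library at 8 weeks. Its log2 change was -3.47 ± 0.50 at 3 weeks (adjusted p = 0.0013) and 6.90 ± 1.02 at 8 weeks (adjusted p = 0.0015), and it was -4.10 without HT replicate 3 at 3 weeks and 5.53 without HT replicate 1 at 8 weeks. A second multicystatin, PGSC0003DMG400026899, took the same course. Its level was 40.5, 29.1 and 37.4 CPM at NT and 1.92, 2.61 and 5.89 CPM at HT at 3 weeks, and at 0.495, 0.502 and 0.244 CPM at NT and 121, 9.90 and 35.1 CPM at HT at 8 weeks. Its log2 changes were -3.36 ± 0.47 and 7.06 ± 1.02 (adjusted p = 0.0012 and 0.0014), or -3.98 without HT replicate 3 at 3 weeks and 5.76 without HT replicate 1 at 8 weeks. Counts of the first over the second lay between 1.24 and 1.62 in the 9 libraries with at least 100 counts of both. The product names are the same, and reads from near-identical copies may have been split between them, so the levels of the single transcripts are uncertain, as they are within the Kunitz, patatin and type II families. The third multicystatin, PGSC0003DMG400005921, was low. At 3 weeks it fell from 0.802 ± 0.267 to 0.0654 ± 0.0925 CPM (log2 change -3.62 ± 0.95, adjusted p = 0.0082, and -3.02 without HT replicate 1 or -5.84 without HT replicate 3). The filter removed it at 8 weeks, with 0.0762, 0 and 0.0871 CPM at NT and 1.87, 0.0702 and 0.487 CPM at HT, where the groups overlap.

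**Figure D2:**
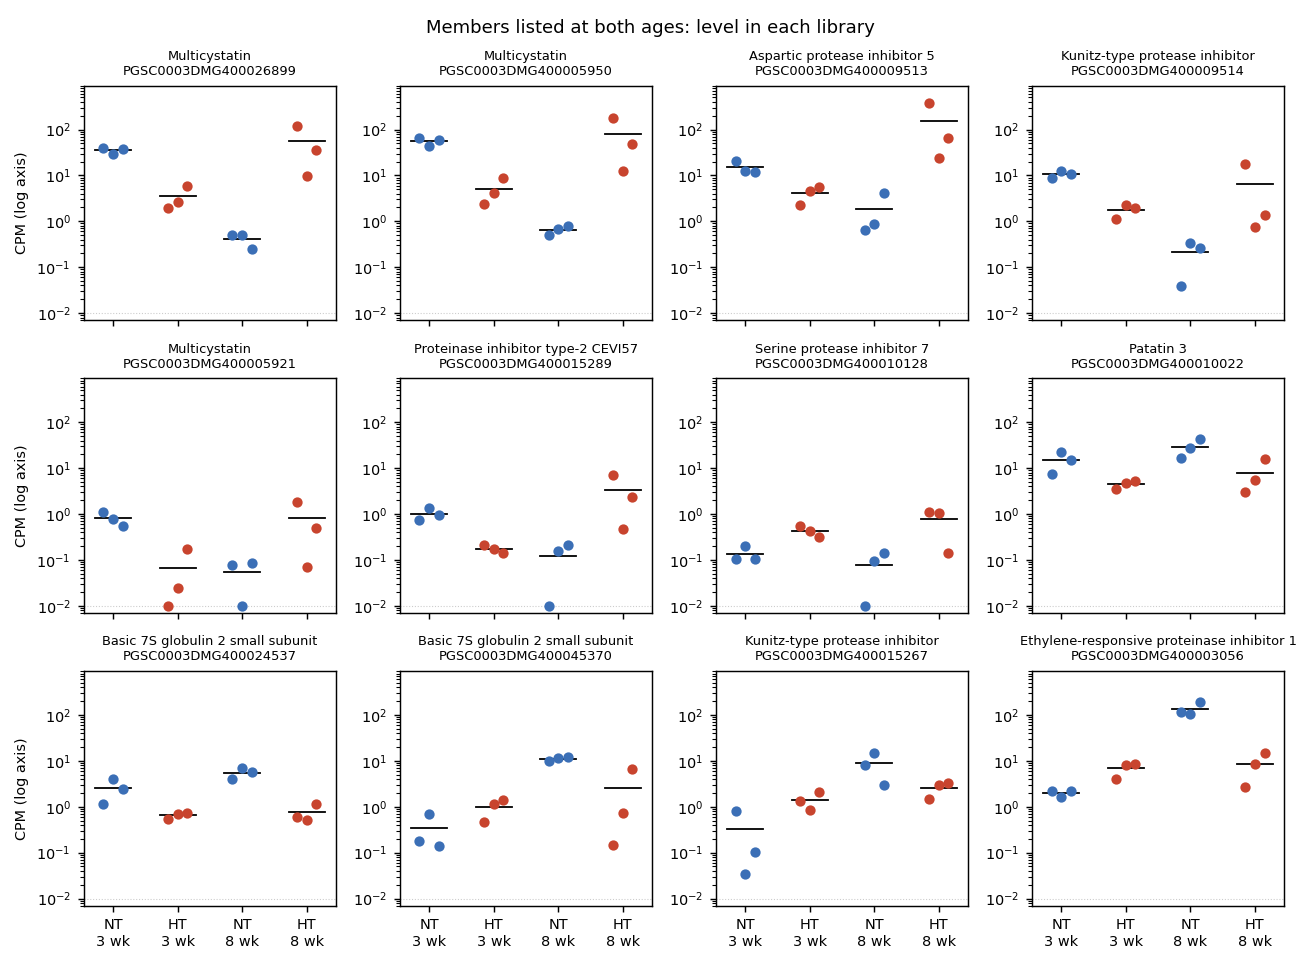
Level in each library (points, CPM on a log axis) of the 12 members listed at both ages, in NT (blue) and HT (red) at 3 and 8 weeks, with the group mean as a bar and values of 0 drawn on the dotted line at 0.01. The first 2 multicystatins lie above 29 CPM in every NT library at 3 weeks and below 1 CPM in every NT library at 8 weeks.

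Of the Kunitz family inhibitors, 8 of 9 tested rose at 8 weeks and 1 fell, where 59.3% of all tested transcripts rose and 38.0% fell. At 3 weeks 1 of 4 tested rose, 2 fell and 1 was not called, where 60.3% of all rose and 37.2% fell. Aspartic protease inhibitor 5 (PGSC0003DMG400009513), whose family is known to act on aspartic and serine proteases, was at 20.7, 12.7 and 11.8 CPM at NT and 2.23, 4.52 and 5.73 CPM at HT at 3 weeks. In the 8-week plants it was at 0.647, 0.864 and 4.18 CPM at NT and 369, 24.2 and 64.9 CPM at HT, with no overlap at either age and with HT replicate 1 far above the other HT libraries. Its log2 changes were -1.85 ± 0.42 (adjusted p = 0.0052) and 6.33 ± 1.28 (adjusted p = 0.0033). The change at 8 weeks was 4.55 without HT replicate 1 and 7.65 without NT replicate 3. A Kunitz-type protease inhibitor (PGSC0003DMG400009514) fell from 10.6 ± 1.82 to 1.77 ± 0.561 CPM at 3 weeks, a log2 change of -2.59 ± 0.35 (adjusted p = 0.0011). Its 8-week level was 0.0381, 0.33 and 0.261 CPM at NT and 17.6, 0.758 and 1.35 CPM at HT, a log2 change of 4.94 ± 1.36 (adjusted p = 0.0093) that was 2.30 without HT replicate 1. Both transcripts were lower at HT than at NT at 3 weeks and lower at NT than at HT at 8 weeks. For PGSC0003DMG400009514 the HT libraries of 3 weeks were at 1.13, 2.21 and 1.95 CPM. Of its HT libraries of 8 weeks, replicate 1 alone lay above all of these. Without that library its log2 change from 3 to 8 weeks at HT was -1.05.

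Most other members of the Kunitz family were listed at 8 weeks alone. Aspartic protease inhibitor 8 (PGSC0003DMG400009511) was at 0.209, 0.487 and 0.592 CPM at NT and at 20.8, 37.2 and 84.4 CPM at HT. Here HT replicate 3 and not replicate 1 was the highest, and the log2 change was 6.78 ± 0.76 (adjusted p = 0.00071), or 6.07 without HT replicate 3. Kunitz trypsin inhibitor (PGSC0003DMG400027053) rose from 6.33 ± 2.55 to 20.3 ± 8.71 CPM (log2 change 1.68 ± 0.50, adjusted p = 0.012), and with DESeq2 size factors it was 0.44 and not called. Kunitz-type enzyme inhibitor S9C11 was listed as a pair of transcripts. PGSC0003DMG400010147 was at 0.0381, 0.126 and 0.157 CPM at NT and 1.24, 15.9 and 3.28 CPM at HT, so that HT replicate 2 was the highest (log2 change 5.96 ± 1.12, adjusted p = 0.0027, and 4.37 without HT replicate 2). PGSC0003DMG400010186 was even across the HT libraries at 1.70, 1.70 and 1.87 CPM, against 0.343, 0.487 and 0.157 CPM at NT (log2 change 2.41 ± 0.61, adjusted p = 0.0068, and not called at 1.12 with DESeq2 size factors). Cysteine protease inhibitor 1 (PGSC0003DMG400010137), a Kunitz family protein that acts on cysteine proteases, rose from 0.0737 ± 0.0901 to 9.08 ± 11.8 CPM (log2 change 6.90 ± 1.5, adjusted p = 0.0041). That change was 4.91 without HT replicate 1, which held 22.7 CPM, and 8.39 without NT replicate 3. Kunitz-type protease inhibitor KPI-D2.2 (PGSC0003DMG400029534) rose from 0.019 ± 0.033 to 1.66 ± 0.813 CPM (log2 change 6.39 ± 1.16, adjusted p = 0.0025). Its NT counts were near 0, and the change was 9.72 without NT replicate 1 and 5.80 without NT replicate 2. A second Cysteine protease inhibitor 1 (PGSC0003DMG400010143), listed at 3 weeks, failed the filter there, with 0.14, 0.492 and 0.834 CPM at NT and 0.0468, 0.025 and 0 CPM at HT.

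The last 2 Kunitz family members listed at both ages went another way. Kunitz-type protease inhibitor PGSC0003DMG400015267 was at 0.823, 0.0339 and 0.104 CPM at NT and 1.35, 0.862 and 2.11 CPM at HT at 3 weeks, and was not called (log2 change 2.16 ± 0.95, adjusted p = 0.054). Without NT replicate 1, the highest NT library, it was called higher at 4.35 (adjusted p = 0.00097), and with plain library totals at 2.56 (adjusted p = 0.031). Its 8-week level was 8.23, 15.1 and 3.01 CPM at NT and 1.45, 2.96 and 3.22 CPM at HT, with overlapping groups, and fell (log2 change -1.79 ± 0.65, adjusted p = 0.026). That call was lost without HT replicate 1, NT replicate 1 or NT replicate 2 (adjusted p = 0.062, 0.056 and 0.13, log2 change -1.51, -1.83 and -1.14). Serine protease inhibitor 7 (PGSC0003DMG400010128) was low throughout. It rose from 0.138 ± 0.0572 to 0.434 ± 0.123 CPM at 3 weeks (log2 change 1.64 ± 0.47, adjusted p = 0.011), a change of 0.44 with DESeq2 size factors and 1.12 with TMM factors and then not called. The filter removed it at 8 weeks, when it was at 0, 0.0942 and 0.139 CPM at NT and 1.12, 1.07 and 0.141 CPM at HT.

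The potato type I inhibitors were a pair with opposite changes at 8 weeks. Ethylene-responsive proteinase inhibitor 1 (PGSC0003DMG400003056), named after an ethylene-induced gene of tomato, was at 2.17, 1.60 and 2.17 CPM at NT and 4.08, 8.24 and 8.37 CPM at HT at 3 weeks. In the 8-week plants it was at 118, 104 and 192 CPM at NT and 2.71, 8.40 and 14.6 CPM at HT. The groups did not overlap at either age, and the level in the NT libraries at 8 weeks was the one that stood out. The log2 change was 1.80 ± 0.36 at 3 weeks (adjusted p = 0.0034) and -4.0 ± 0.67 at 8 weeks (adjusted p = 0.0019). With DESeq2 size factors the rise at 3 weeks was 0.56 and not called, and without HT replicate 3 the fall at 8 weeks was -4.63. Type I serine protease inhibitor (PGSC0003DMG400012089), listed at 8 weeks, was at 0.857, 1.10 and 1.71 CPM at NT and 204, 53.1 and 84.0 CPM at HT (log2 change 6.54 ± 0.70, adjusted p = 0.00064, and 5.81 without HT replicate 1). Every HT library was far above the highest NT library. Per length the pair stood among the highest members, with an RPKM of 316 for the type I inhibitor in the HT mean and 216 for the ethylene-responsive inhibitor in the NT mean in the authors' deposited table.

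The 7 potato type II inhibitors were split at 8 weeks. Of them 3 rose, 3 fell and 1 was not called, where 59.3% of all tested transcripts rose and 38.0% fell. Proteinase inhibitor type-2 P303.51 (PGSC0003DMG400004547) had the highest level per length of the 7, with an RPKM of 77.8 in the authors' deposited table. It was at 1.58, 9.78 and 8.22 CPM at NT and 46.8, 23.3 and 90.3 CPM at HT (log2 change 3.03 ± 0.76, adjusted p = 0.0067, 2.42 without HT replicate 3, and not called at 1.78 with DESeq2 size factors). Of the 5 transcripts named type-2 CEVI57, after a viroid-induced transcript of tomato, 3 fell at 8 weeks. PGSC0003DMG400002110 was at 23.4, 22.7 and 2.99 CPM at NT and 0.0652, 0.211 and 0.534 CPM at HT (log2 change -5.91 ± 1.06, adjusted p = 0.0024, -6.85 without HT replicate 3). PGSC0003DMG400015290 went from 8.38 ± 5.57 to 0.121 ± 0.195 CPM (log2 change -6.11 ± 1.41, adjusted p = 0.0051), a change of -5.51 without HT replicate 2 and -9.76 without HT replicate 3. PGSC0003DMG400004549 went from 3.21 ± 2.15 to 0.0819 ± 0.0661 CPM (log2 change -5.26 ± 0.90, adjusted p = 0.0021), a change of -6.10 without HT replicate 3 and -4.64 without NT replicate 1. NT replicate 3 was the lowest NT library for all 3 of these transcripts, and still lay above every HT library.

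The other CEVI57 transcripts rose at 8 weeks. PGSC0003DMG400015289 was at 0.736, 1.32 and 0.956 CPM at NT and 0.211, 0.175 and 0.145 CPM at HT at 3 weeks, a fall of log2 change -2.49 ± 0.40 (adjusted p = 0.0016). Its 8-week level was 0, 0.157 and 0.209 CPM at NT and 7.03, 0.463 and 2.37 CPM at HT, a rise of 4.71 ± 1.29 (adjusted p = 0.0091) that was 3.5 without HT replicate 1 and 5.31 without NT replicate 3. The groups did not overlap at either age. PGSC0003DMG400015287 rose from 0.405 ± 0.0883 to 3.28 ± 4.12 CPM (log2 change 3.01 ± 1.0, adjusted p = 0.019), with HT replicate 1 at 8.00 CPM and HT replicate 3 within the NT range at 0.455 CPM. That rise rests on HT replicate 1, without which it was 1.19 (adjusted p = 0.11). It was also not called without NT replicate 1, 2 or 3 (adjusted p = 0.06, 0.05005 and 0.064) or at 1.54 with DESeq2 size factors. Proteinase inhibitor IIa (PGSC0003DMG400030593), of the family of the wound-induced leaf inhibitor II, was at 0.133, 0.754 and 0.609 CPM at NT and 10.8, 0.477 and 0.157 CPM at HT. HT replicates 2 and 3 lay within the NT range and it was not called (log2 change 2.93 ± 1.43, adjusted p = 0.073). Its direction rests on HT replicate 1, without which the change was -0.65, and without HT replicate 2 or 3 it was called at 3.45 and 3.49 (adjusted p = 0.038 and 0.019).

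The remaining inhibitors held the member with the highest level per length at 8 weeks. A transcript named Proteinase inhibitor (PGSC0003DMG400009268) had an RPKM of 610.2 in the authors' deposited table. It was at 8.65, 6.94 and 11.6 CPM at NT and 517, 145 and 236 CPM at HT, well apart in every library, with a log2 change of 5.05 ± 0.61 (adjusted p = 0.00088) or 4.40 without HT replicate 1. Proteinase inhibitor I4, serpin (PGSC0003DMG400018930), of a family that traps serine proteases, rose from 1.10 ± 1.10 to 8.94 ± 4.09 CPM (log2 change 3.03 ± 0.80, adjusted p = 0.0079). It was 4.28 without NT replicate 3 and 1.74 and not called with DESeq2 size factors. Trypsin proteinase inhibitor (PGSC0003DMG400031328) rose from 0.134 ± 0.0685 to 0.686 ± 0.188 CPM (log2 change 2.33 ± 0.66, adjusted p = 0.01, and not called at 1.05 with DESeq2 size factors). A Protease inhibitor/seed storage/lipid transfer protein (PGSC0003DMG402013388), of a broad family that is not made of inhibitors alone, fell from 9.93 ± 6.85 to 0.191 ± 0.172 CPM. Its log2 change was -5.68 ± 1.0 (adjusted p = 0.0023), -6.49 without HT replicate 3 and -4.95 without NT replicate 2. Protease inhibitor PGSC0003DMG400032259 fell from 2.83 ± 2.12 to 0.146 ± 0.141 CPM (log2 change -4.25 ± 1.17, adjusted p = 0.0092), a change of -5.13 without HT replicate 2 and -3.49 without NT replicate 2. At 3 weeks Cysteine proteinase inhibitor B (PGSC0003DMG400017928) fell from 1.72 ± 0.252 to 0.511 ± 0.0715 CPM (log2 change -1.75 ± 0.32, adjusted p = 0.0023). A further seed storage/lipid transfer transcript listed at 3 weeks (PGSC0003DMG400043645) failed the filter, at 0.0695 to 0.525 CPM at NT and 0.0468 to 0.0749 CPM at HT.

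Aspartic proteases were listed at 8 weeks alone, and 15 of the 16 tested rose, where 59.3% of all tested transcripts rose. With DESeq2 size factors 10 and not 15 of the aspartic proteases rose. These enzymes cut proteins with a pair of aspartates in the active site, and nepenthesins were first known from the digestive fluid of pitcher plants. Their log2 changes ran from 1.61 to 5.77, and the 17 listed transcripts summed to 250.0, 234 and 269.8 CPM at NT and to 1401, 468 and 587 CPM at HT. Nepenthesin-1 PGSC0003DMG400005409 had the highest level per length, an RPKM of 258 in the authors' deposited table. It was at 8.59, 8.29 and 13.2 CPM at NT and 808, 183 and 197 CPM at HT, with HT replicate 1 far above the other HT libraries, and its log2 change was 5.30 ± 0.74 (adjusted p = 0.0013) or 4.24 without HT replicate 1. Nepenthesin-1 PGSC0003DMG400002046 was at 1.26, 1.57 and 5.55 CPM at NT and 221, 85.6 and 126 CPM at HT (log2 change 5.69 ± 0.77, adjusted p = 0.0013, and 6.67 without NT replicate 3). The steadiest large rise was that of nepenthesin-2 PGSC0003DMG400008899, at 0.152, 0.314 and 0.139 CPM at NT and 15, 8.51 and 10.1 CPM at HT (log2 change 5.77 ± 0.60, adjusted p = 0.00064). The smallest was that of Aspartic proteinase Asp1 (PGSC0003DMG400023357), from 3.25 ± 0.173 to 9.92 ± 1.37 CPM (log2 change 1.61 ± 0.40, adjusted p = 0.0062, and not called at 0.30 with DESeq2 size factors). The pair of transcripts named oryzasin-1, after a rice seed enzyme, rose by 3.4 ± 1.13 (PGSC0003DMG400013439) and 3.84 ± 0.64 (PGSC0003DMG400030172). The first was 2.80 without HT replicate 3 and 4.78 without NT replicate 3, and was not called without NT replicate 2 (3.22, adjusted p = 0.067) or at 2.22 with DESeq2 size factors. The second was 4.53 without NT replicate 3. The exception was nepenthesin-1 PGSC0003DMG400003655, at 209, 191 and 205 CPM at NT and 16.7, 37.5 and 51.6 CPM at HT (log2 change -2.51 ± 0.48, adjusted p = 0.0028). In the NT libraries it made up most of the summed level of the family. Nepenthesin-1 PGSC0003DMG400002196 failed the filter, at 0.0314 to 0.343 CPM at NT and 0 to 0.0421 CPM at HT.

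Patatins were detected in the leaves at low to moderate levels and were split. At 8 weeks 5 of the 7 tested rose and 2 fell. Of all tested transcripts 59.3% rose and 38.0% fell, so the counts lie near the background. With DESeq2 size factors 3 and not 5 patatins rose. The 8 listed patatins summed to 54.2, 60.3 and 74.7 CPM at NT and 237, 96.1 and 104 CPM at HT. Patatin group O (PGSC0003DMG400029247) had the highest RPKM of them, 77.0 in the authors' deposited table. It was at 14.4, 5.57 and 11.3 CPM at NT and 183, 73.4 and 56.0 CPM at HT, without overlap (log2 change 3.32 ± 0.61, adjusted p = 0.0025, and 2.63 without HT replicate 1). The pair of transcripts named patatin B2 rose with it. PGSC0003DMG400008357 went from 1.03 ± 0.47 to 16.3 ± 7.51 CPM (log2 change 3.98 ± 0.63, adjusted p = 0.0017), and PGSC0003DMG400023699 from 0.349 ± 0.0721 to 9.41 ± 9.37 CPM (log2 change 4.74 ± 0.86, adjusted p = 0.0025, and 3.55 without HT replicate 1). Patatin T5 (PGSC0003DMG400020128) and patatin-05 (PGSC0003DMG400008749) rose by 2.76 ± 0.71 and 1.90 ± 0.50 on the log2 scale, and were not called at 1.42 and 0.66 with DESeq2 size factors. A second patatin T5 (PGSC0003DMG400012878) failed the filter, with 3.86, 0.14 and 1.18 CPM at HT and at most 0.122 CPM at NT.

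The patatins that fell were both named patatin 3. PGSC0003DMG400000766 was at 19.9, 24.4 and 17.3 CPM at NT and 0.245, 0.365 and 1.24 CPM at HT at 8 weeks, a log2 change of -5.05 ± 0.72 (adjusted p = 0.0014) or -6.06 without HT replicate 3. PGSC0003DMG400010022 was at 7.48, 22.7 and 14.7 CPM at NT and 3.53, 4.85 and 5.30 CPM at HT at 3 weeks (log2 change -1.71 ± 0.43, adjusted p = 0.0072). Its 8-week level was 16.9, 27.8 and 43.0 CPM at NT and 2.95, 5.50 and 15.5 CPM at HT (log2 change -1.87 ± 0.66, adjusted p = 0.023). Its groups did not overlap, but the call at 8 weeks was lost without HT replicate 2, NT replicate 2 or NT replicate 3 (adjusted p = 0.069, 0.052 and 0.083). Without HT replicate 3 the change was -2.79.

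Globulins fell at 3 weeks and were split at 8 weeks. At 3 weeks 4 of the 5 tested fell and 1 was not called, where 37.2% of all tested transcripts fell. When adjusted over all the authors' tests, 0 and not 4 globulins were called lower there. At 8 weeks 3 of the 7 tested rose, 3 fell and 1 was not called, where 59.3% of all tested transcripts rose and 38.0% fell. Basic 7S globulin is a seed protein of soybean related in sequence to aspartic proteases, and 8 of the 10 members carry its name. The highest of them at 3 weeks, PGSC0003DMG400033123, was at 13.0, 104 and 100.1 CPM at NT and 0.842, 4.48 and 3.62 CPM at HT (log2 change -4.60 ± 0.93, adjusted p = 0.0034). Replicate 1 was the lowest library in both of its groups. The transcripts named Globulin (PGSC0003DMG400000013 and PGSC0003DMG400000015) were low and fell by 1.59 ± 0.44 and 2.10 ± 0.54 on the log2 scale. At 8 weeks PGSC0003DMG400000807 rose from 1.36 ± 0.388 to 14.5 ± 10.4 CPM (log2 change 3.42 ± 0.65, adjusted p = 0.0028, and 2.70 without HT replicate 1), PGSC0003DMG400008982 from 1.10 ± 0.447 to 7.94 ± 5.38 CPM (2.85 ± 0.63, adjusted p = 0.0044, and 2.15 without HT replicate 1). PGSC0003DMG400043592 rose from 0.0267 ± 0.0324 to 0.28 ± 0.0347 CPM (log2 change 3.23 ± 0.90, adjusted p = 0.0095, 4.67 without NT replicate 2, and not called at 2.03 with DESeq2 size factors).

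Among the globulins that fell at 8 weeks, PGSC0003DMG400008985 changed by -2.96 ± 0.78 on the log2 scale (adjusted p = 0.0079, and -3.92 without HT replicate 3), and PGSC0003DMG400024538 by -2.73 ± 0.57 (adjusted p = 0.0037). PGSC0003DMG400024537 fell at both ages, from 2.54 ± 1.43 to 0.662 ± 0.0975 CPM at 3 weeks (log2 change -1.94 ± 0.48, adjusted p = 0.0069) and from 5.55 ± 1.51 to 0.756 ± 0.353 CPM at 8 weeks (-2.87 ± 0.55, adjusted p = 0.0028). PGSC0003DMG400045370 was called at neither age with all libraries. At 3 weeks it was at 0.175, 0.713 and 0.139 CPM at NT and 0.468, 1.16 and 1.38 CPM at HT, with overlap (log2 change 1.54 ± 0.70, adjusted p = 0.061). It was called higher there without NT replicate 2 (2.66, adjusted p = 0.01), without HT replicate 1 (1.89, adjusted p = 0.045) and with plain library totals (1.94, adjusted p = 0.029). In the 8-week plants it was at 9.84, 11.4 and 11.9 CPM at NT and 0.147, 0.73 and 6.78 CPM at HT, which do not overlap but vary widely within HT (log2 change -2.11 ± 1.10, adjusted p = 0.089). Without HT replicate 3 it was called at 8 weeks, with a change of -4.64 (adjusted p = 0.0025), as it was at -3.36 with DESeq2 size factors (adjusted p = 0.033).

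Members listed at both ages changed direction more often than listed transcripts as a whole, as a description of the authors' lists. Opposite signs at the ages in the authors' deposited table were found for 9 of the 12, where 25.3% of the 580 transcripts listed at both ages had them. Lower at 3 weeks and higher at 8 weeks were 6 of the 12 (9.48% of the 580), namely the 3 multicystatins, aspartic protease inhibitor 5, Kunitz-type protease inhibitor PGSC0003DMG400009514 and CEVI57 PGSC0003DMG400015289. Higher at 3 weeks and lower at 8 weeks were 3 of the 12 (15.9% of the 580), namely ethylene-responsive proteinase inhibitor 1, Kunitz-type protease inhibitor PGSC0003DMG400015267 and globulin PGSC0003DMG400045370. Of the 10 members tested at both ages 6 were called in opposite directions, where 23.2% of the 496 transcripts tested at both ages were. The 3 multicystatins share a product name, and reads may have been split between them. They may therefore not be separate members in these counts or in those of the comparisons that follow.

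**Figure D3:**
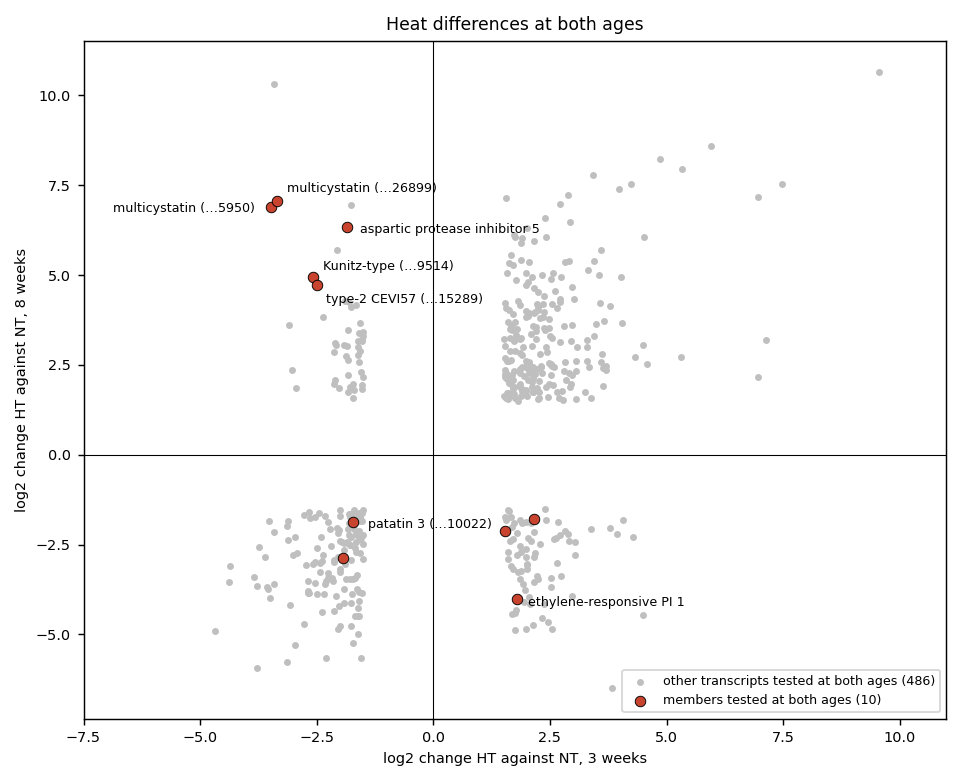
Log2 change of HT against NT at 3 weeks (horizontal axis) and at 8 weeks (vertical axis) for the 496 transcripts tested at both ages (grey), with the 10 members among them in red. The upper left field, lower at 3 weeks and higher at 8 weeks, holds 5 members, with multicystatin at -3.47 and -3.36 on the horizontal axis and at 6.90 and 7.06 on the vertical axis.

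The difference between the heat effects was tested as an interaction of age and temperature over all 12 libraries. This test combines the same comparisons on which the transcripts were listed, so its calls are partly set by the listing and are a description. The interaction was called for 8 of the 12 members, 6 of them more positive at 8 weeks and 2 more negative. Of all 576 tested transcripts 33.7% were called, 15.8% more positive and 17.9% more negative. The differences were 10.42 ± 1.24 and 10.37 ± 1.26 on the log2 scale for multicystatins PGSC0003DMG400026899 and PGSC0003DMG400005950 (edgeR quasi-likelihood test, adjusted p = 0.00026 for each). They were 8.18 ± 1.45 for aspartic protease inhibitor 5 and 7.53 ± 1.52 for Kunitz-type protease inhibitor PGSC0003DMG400009514 (adjusted p = 0.0011 and 0.0023). Multicystatin PGSC0003DMG400005921 differed by 7.48 ± 1.86 and CEVI57 PGSC0003DMG400015289 by 7.21 ± 1.44 (adjusted p = 0.0073 and 0.0021). The value of PGSC0003DMG400005921 rests on low counts, since it failed the filter at 8 weeks, where its groups overlapped. In the other direction, ethylene-responsive proteinase inhibitor 1 differed by -5.80 ± 0.85 and Kunitz-type protease inhibitor PGSC0003DMG400015267 by -3.95 ± 1.28 (adjusted p = 0.0006 and 0.03). Without HT replicate 1 of 8 weeks the 6 positive differences were 9.12, 9.0, 6.41, 4.89, 5.94 and 5.99 in the order given, and each was still called. Other libraries moved some of them too. Without HT replicate 3 of 3 weeks the differences of the multicystatins were 11.03, 11 and 9.70, and that of PGSC0003DMG400005921 was 6.89 without HT replicate 1 of 3 weeks and 6.88 without NT replicate 2 of 8 weeks. Without NT replicate 3 of 8 weeks aspartic protease inhibitor 5 differed by 9.51 and PGSC0003DMG400015289 by 7.80, and without HT replicate 3 of 8 weeks ethylene-responsive proteinase inhibitor 1 differed by -6.43. The call of PGSC0003DMG400015267 was lost without any of 6 libraries (adjusted p = 0.052 to 0.092), namely HT replicate 3 and NT replicate 3 of 3 weeks and HT replicates 1 and 2 and NT replicates 1 and 2 of 8 weeks, and its difference was -6.13 without NT replicate 1 of 3 weeks. The differences of globulin PGSC0003DMG400045370 (-3.66 ± 1.49, adjusted p = 0.08), globulin PGSC0003DMG400024537 (-0.94 ± 0.73), patatin 3 PGSC0003DMG400010022 (-0.16 ± 0.87) and serine protease inhibitor 7 (1.63 ± 1.25) were not called.

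The ages were then compared within a temperature, on plain library totals. This contrast was not itself used for the listing, but it shares its libraries: listing as lower at HT at 3 weeks favours a high NT level there, and listing as higher at HT at 8 weeks favours a low NT level there. The calls between ages are therefore partly set by the listing and are given as a description. At NT 9 of the 12 members were called, with 3 higher and 6 lower at 8 weeks, where 46.2% of all 576 transcripts were called, 31.2% higher and 14.9% lower. Those lower at 8 weeks were the 6 that had been lower at HT at 3 weeks and higher at 8 weeks. Multicystatins PGSC0003DMG400005950 and PGSC0003DMG400026899 fell between 3 and 8 weeks at NT, with log2 changes of -6.41 ± 0.94 and -6.42 ± 0.93 (edgeR quasi-likelihood test, adjusted p = 0.00011 and 9.7e-05), which is an 85.2-fold and an 85.8-fold lower level. PGSC0003DMG400009514 fell by 5.64 ± 1.18 (adjusted p = 0.0016). The falls of multicystatin PGSC0003DMG400005921 (-3.86 ± 1.35, adjusted p = 0.032), CEVI57 PGSC0003DMG400015289 (-3.01 ± 1.01, adjusted p = 0.028) and aspartic protease inhibitor 5 (-2.99 ± 0.97, adjusted p = 0.024) were less firm. The first lost its call without any NT library other than replicate 3 of 3 weeks (adjusted p = 0.055 to 0.1). The second lost it without NT replicates 2 or 3 of 3 weeks or replicates 1 or 2 of 8 weeks (adjusted p = 0.050 to 0.067), and was -3.59 without NT replicate 3 of 8 weeks. The third lost it without NT replicate 1 of 3 weeks or replicates 1 or 2 of 8 weeks (adjusted p = 0.057 to 0.094), and was -4.31 without NT replicate 3 of 8 weeks. Ethylene-responsive proteinase inhibitor 1 rose by 6.12 ± 0.69 (adjusted p = 2.5e-05), from 1.98 ± 0.333 to 138 ± 47.3 CPM. Globulin PGSC0003DMG400045370 rose by 5.0 ± 1.20 (adjusted p = 0.0038, and 6.12 without NT replicate 2 of 3 weeks), and PGSC0003DMG400015267 by 4.77 ± 1.02 (adjusted p = 0.0019, 6.95 without NT replicate 1 of 3 weeks and 4.12 without NT replicate 2 of 8 weeks).

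At HT 4 of the 12 members were called between the ages, all higher at 8 weeks, where 7.47% of all 576 transcripts were called, 5.38% higher and 2.08% lower. They were aspartic protease inhibitor 5 (4.89 ± 1.06, edgeR quasi-likelihood test, adjusted p = 0.015), CEVI57 PGSC0003DMG400015289 (3.90 ± 1.02, adjusted p = 0.035) and multicystatins PGSC0003DMG400026899 (3.69 ± 0.81, adjusted p = 0.016) and PGSC0003DMG400005950 (3.65 ± 0.82, adjusted p = 0.018). These calls rest on few libraries. None of the 4 was called without HT replicate 1, 2 or 3 of 3 weeks, when the adjusted p lay between 0.055 and 0.15. With a term for the replicate number none of them was called either (adjusted p = 0.052 to 0.083). Without HT replicate 1 of 8 weeks the changes were 3.12, 2.68, 2.39 and 2.28 in the order given, and that of CEVI57 was not called (adjusted p = 0.061), nor was it without NT replicate 2 or 3 of 3 weeks or NT replicate 2 of 8 weeks (adjusted p = 0.052 to 0.053). Ethylene-responsive proteinase inhibitor 1, which differed most between the ages at NT in the upward direction, was at 9.11 ± 3.22 CPM at 3 weeks and 9.17 ± 6.37 CPM at 8 weeks at HT on plain totals (log2 difference 0.01 ± 0.55).

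Within the HT libraries of 8 weeks, replicate 1 was the highest for 27 of the 40 members called higher (67.5%), replicate 3 for 10 and replicate 2 for 3. Among all 3067 transcripts called higher replicate 1 was the highest for 68.5%. It was more than 3 times the mean of the other 2 libraries for 10 of the 40 members (25%) and for 19.7% of all transcripts called higher. Both tested multicystatins and 2 of the 3 type II inhibitors called higher were among these 10, with 3 of the 8 Kunitz family inhibitors, 2 of the 15 aspartic proteases and 1 of the 5 patatins. With HT replicate 1 left out 51 of 56 tested members were called, 39 higher and 12 lower.

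**Figure D4:**
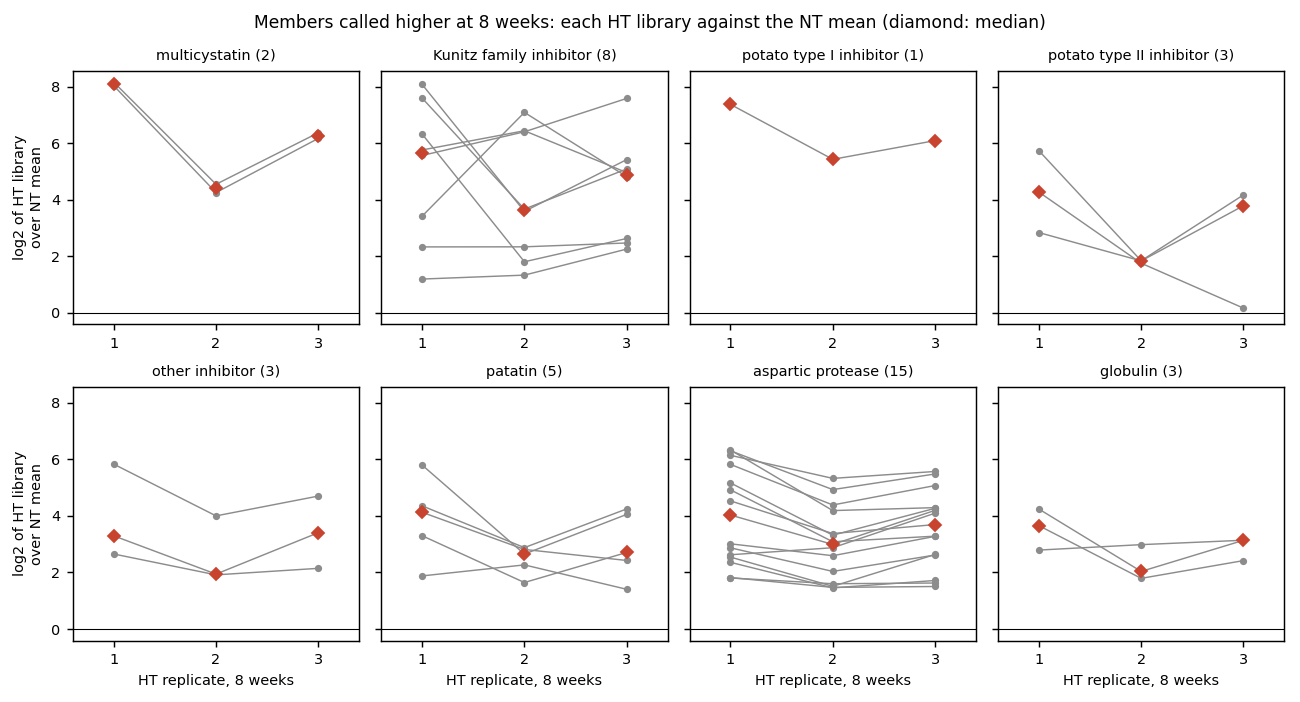
Log2 of each HT library at 8 weeks over the mean of the NT libraries (vertical axis) for the 40 members called higher, by kind, with a line joining the values of a transcript and a diamond for the median. The replicates have no order, and the plotted point is the spread between them. By the medians of the kinds it is widest for the multicystatins, at 8.10, 4.40 and 6.27 in HT replicates 1, 2 and 3. Some single Kunitz family transcripts spread more, such as PGSC0003DMG400009514 at 17.6, 0.758 and 1.35 CPM.

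Transcripts linked to these proteins were counted from lists of product names. The first holds proteases on which such inhibitors act, cysteine proteases, subtilisin-like proteases and serine carboxypeptidases. Of them 1 rose and 3 fell at 3 weeks among 4 tested, and 16 rose and 10 fell at 8 weeks among 26 (7 and not 16 rose with DESeq2 size factors). The shares at 8 weeks were close to the 59.3% higher and 38.0% lower of all tested transcripts, and at 3 weeks 60.3% of all rose and 37.2% fell. The list summed to 5555, 5144 and 2584 CPM at NT and 1032, 1131 and 1214 CPM at HT at 8 weeks, so its summed level was lower at HT although more of its transcripts were called higher. The largest rise was that of Cysteine proteinase 3 (PGSC0003DMG400027888), from 0.762, 0.644 and 0.853 CPM at NT to 394, 29.7 and 179 CPM at HT (log2 change 8.06 ± 1.02, adjusted p = 0.001, and 7.11 without HT replicate 1). The largest fall was that of Senescence-specific cysteine protease (PGSC0003DMG400010207), which was at 1119, 1233 and 7.85 CPM at NT and 1.92 to 2.38 CPM at HT (log2 change -8.55 ± 1.62, adjusted p = 0.0028). NT replicate 3 was far below the other NT libraries, as it was for the type II inhibitors that fell. At 3 weeks Cysteine protease PGSC0003DMG400010212 rose by 3.60 ± 0.92 from near 0 (7.05 without NT replicate 3, and not called at 2.44 with DESeq2 size factors), and PGSC0003DMG400010215 fell by 2.78 ± 0.72 (2.02 without NT replicate 2).

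Enzymes and regulators of jasmonate, the hormone that induces many inhibitors in wounded leaves, changed in both directions. Of them 2 rose and 1 fell at 3 weeks, where 60.3% of all tested transcripts rose and 37.2% fell. At 8 weeks 12 rose and 8 fell among 20 tested (5 and not 12 rose with DESeq2 size factors), shares close to the 59.3% higher and 38.0% lower of all tested transcripts. At 8 weeks a MYC2 transcript (PGSC0003DMG404010822), named for the transcription factor of jasmonate responses, was without counts in every NT library and at 0.342, 0.337 and 0.581 CPM at HT, which is at least 24.3-fold higher against a floor of 3 counts over the NT group. Jasmonate O-methyltransferase (PGSC0003DMG400003743), which makes methyl jasmonate, fell from 3.22 to 0.115 CPM (log2 change -4.77 ± 0.74, adjusted p = 0.0016). The lipoxygenases PGSC0003DMG400010859 and PGSC0003DMG400020999 rose at 3 weeks by 2.05 ± 0.70 and 2.25 ± 0.34. The first had overlapping groups, was not called without HT replicate 2 or NT replicate 3 (adjusted p = 0.095 and 0.066) or at 0.83 with DESeq2 size factors, and was 2.71 without NT replicate 2.

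Wound response transcripts, which are induced together with inhibitors in damaged leaves, held 3 that rose and 4 that fell at 3 weeks. Of all tested transcripts 60.3% rose and 37.2% fell there. At 8 weeks 11 rose, 4 fell and 1 was not called (4 and not 11 rose with DESeq2 size factors). There 59.3% of all tested transcripts rose and 38.0% fell, so the count of rises lies near the background. The summed level of the wound response list went the other way at 8 weeks, from 1000.3, 967 and 1375 CPM at NT to 565, 440.3 and 588 CPM at HT. Threonine dehydratase (PGSC0003DMG400012987), an enzyme of isoleucine synthesis that also has a defensive role in tomato leaves, moved like the multicystatins. Its result at 3 weeks was chosen after its values were seen. It was at 35.0, 20.6 and 20.1 CPM at NT and 4.63, 5.83 and 11.9 CPM at HT at 3 weeks, and at 0.724, 1.0 and 1.72 CPM at NT and 283, 37.9 and 103 CPM at HT at 8 weeks. Its log2 changes were -1.76 ± 0.43 and 6.94 ± 0.89 (adjusted p = 0.0068 and 0.0011), and 5.93 without HT replicate 1 at 8 weeks. Not every transcript of the related lists moved so. Polyphenol oxidase PGSC0003DMG400018916 changed by 2.75 at 3 weeks and by -3.37 at 8 weeks, and lipoxygenase PGSC0003DMG400010859 by 2.05 and -3.96. Lipoxygenase PGSC0003DMG400020999 changed by 2.25 and 4.02. Leucine aminopeptidase (PGSC0003DMG400010257), a wound-induced enzyme of tomato leaves, rose at 8 weeks by 5.28 ± 1.26 (adjusted p = 0.0056), or by 3.88 without HT replicate 1 and 6.40 without NT replicate 3. Polyphenol oxidases, which brown damaged tissue, were split at 3 weeks, where PGSC0003DMG400018916 rose by 2.75 ± 0.65 (3.46 without NT replicate 2, and not called with DESeq2 size factors) and PGSC0003DMG400018919 fell by 2.87 ± 0.62 (3.77 without HT replicate 3).

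Of transcripts linked to tuber reserves, 1 rose at 3 weeks, where 60.3% of all tested transcripts rose. Among the 7 tested at 8 weeks 6 rose and 1 fell, where 59.3% of all tested transcripts rose and 38.0% fell. The fall was that of Sucrose synthase 2 (PGSC0003DMG400013546), which splits sucrose for starch synthesis, at 576, 671 and 156 CPM at NT and 57.7, 52.7 and 103 CPM at HT (log2 change -2.71 ± 0.61, adjusted p = 0.0046). The largest rise was that of Glucose-1-phosphate adenylyltransferase PGSC0003DMG400025218, the first enzyme of starch synthesis, at under 0.5 CPM in every library (log2 change 3.37 ± 0.89, adjusted p = 0.0081, 4.19 without NT replicate 2, and not called with DESeq2 size factors). A further one (PGSC0003DMG400046891) rose at 3 weeks by 2.26 ± 0.44, and was not called with DESeq2 size factors. With DESeq2 size factors none of the 6 rises at 8 weeks was called. The list summed to 669, 758 and 250.0 CPM at NT and 344, 353 and 339 CPM at HT at 8 weeks, with NT replicate 3 below the HT libraries.

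**Figure D5:**
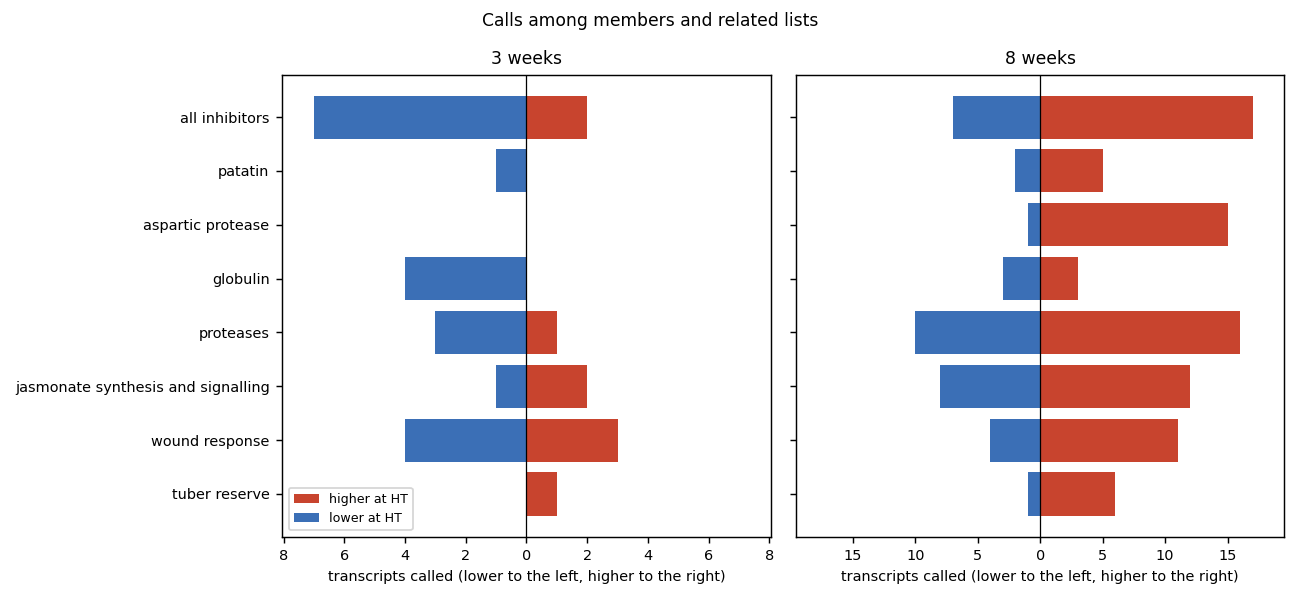
Number of transcripts called lower (blue, to the left) and higher (red, to the right) at HT in each member group and related list, at 3 weeks (left) and 8 weeks (right), on axes of different length. The inhibitors show 7 lower and 2 higher at 3 weeks and 7 lower and 17 higher at 8 weeks, while proteases at 8 weeks show 10 lower and 16 higher. Of all tested transcripts 37.2% were lower and 60.3% higher at 3 weeks, and 38.0% lower and 59.3% higher at 8 weeks.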

How the data were processed

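Strand-specific poly(A) libraries of 12 samples were grouped by their titles. For aligner, counting program and build, names were not given in the sources used here. Per the file headers, the authors' deposited tables hold raw counts per transcript and library, group means of those counts (a signal), the maximum group mean (an RPKM value), the log2 fold change, a signed fold change (a score) and p-values. A further table repeats rows of these and was not used. Identifiers are PGSC0003 models, of which 0 matched the reference gene table, so product names stand as deposited and no positions or sequences are given.

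Library totals were solved from the deposited RPKM, counts and lengths. For HT against NT the HT totals were multiplied by 1.321 at 3 weeks and 1.069 at 8 weeks, the constant by which the authors' log2 changes departed from counts over totals (median -0.402 with an SD of 0.004, and -0.097 with an SD of 0.029). Tests were edgeR 4.0.16 quasi-likelihood F tests (R 4.3.3, filterByExpr, Benjamini-Hochberg, threshold 0.05) over all listed transcripts of an age or of both. An approximate standard error was taken as the size of a log2 change divided by the square root of its F. The scripts were tested on simulated data. DESeq2 1.42.0, other scalings, no filter, each library left out, the replicate block and adjustment over all the authors' tests (33777 and 34088) were tried. Python 3.11.15 with pandas 2.3.3 and matplotlib 3.10.9 made the tables and figures.

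Kinds were set from product names. Named are the members listed at both ages, and, for each kind and age, up to 3 members with the highest RPKM and up to 3 with the largest absolute log2 change and a mean of 10 or more counts in the group where they are higher. Up to 2 called transcripts of each related list were named in the same way. Other members were named for completeness, and the alternatives were run on them too, and threonine dehydratase at 3 weeks was chosen after its values were seen. Members and lists were chosen with earlier results of these data known. The planned ranking of transcripts by likeness of pattern is not given, since the libraries of an age fall in 2 groups. Counting error is small beside the spread between libraries, except below about 1 CPM.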

Additional observations from a re-analysis of the deposited data

Results flagged for a closer look

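For 8 members the effect of temperature differed between the ages by the test of the interaction itself, which is why they are listed here. That test combines the comparisons on which the transcripts were listed, so its calls are partly set by the listing and are a description. The differences of the log2 changes, 8 weeks minus 3 weeks, were 10.42 for Multicystatin PGSC0003DMG400026899, 10.37 for Multicystatin PGSC0003DMG400005950, 8.18 for Aspartic protease inhibitor 5 and 7.53 for Kunitz-type protease inhibitor PGSC0003DMG400009514. They were 7.48 for Multicystatin PGSC0003DMG400005921 and 7.21 for Proteinase inhibitor type-2 CEVI57 PGSC0003DMG400015289. PGSC0003DMG400005921 failed the filter on low counts at 8 weeks, where its groups overlapped. The difference was -3.95 for Kunitz-type protease inhibitor PGSC0003DMG400015267 and -5.80 for Ethylene-responsive proteinase inhibitor 1. The first 2 multicystatins were at 10.42 and 10.37 on all libraries and at 9.12 and 9.0 without HT replicate 1 of 8 weeks. Groups of 3 libraries are too small for a test of single outlying libraries.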

How the results depend on the processing

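At 3 weeks 14 members were called, 2 higher and 12 lower, and 4, all lower, when adjusted over all the authors' tests, which ranks each transcript among many more. The split was 0 higher and 12 lower with DESeq2 size factors, and 4 and 12 with plain library totals. At 8 weeks 53 were called, with 40 higher against 13 lower, which became 26 against 14 with DESeq2 size factors. Leaving out single libraries gave 15 to 16 calls at 3 weeks, 51 to 56 at 8 weeks, 7 to 9 for the interaction, 6 to 9 between ages at NT and 0 to 4 between ages at HT. DESeq2 size factors, taken over listed transcripts, moved the median log2 change of all transcripts by -1.22 at 3 weeks and -1.30 at 8 weeks, by 0.76 for the interaction, and by -1.16 and -0.15 between ages at NT and HT. TMM factors moved it by -0.55, -0.44, 1.28, -1.80 and -0.23, and plain totals by 0.41, 0.10 and -0.30 in the first 3. The other choice of shift moved it by 0.30 between ages at HT. With DESeq2 size factors 11 and not 17 inhibitors were called higher at 8 weeks (1 and not 3 type II and 1 and not 3 other inhibitors), 3 and not 5 patatins, 7 and not 16 proteases, 5 and not 12 jasmonate, 4 and not 11 wound response, 0 and not 6 tuber reserve and 11 and not 30 leaf identity transcripts. Adjusted over all the authors' tests 11 inhibitors were called higher at 8 weeks, and at 3 weeks 4 and not 7 inhibitors and 0 and not 4 globulins were called lower. One HT against NT change turned its sign, that of proteinase inhibitor IIa PGSC0003DMG400030593, at -0.65 without HT replicate 1 (range up to 3.49).

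Whether replicate numbers pair the samples was not settled. The correlations of same-numbered deviations were 0.21, 0.20 and -0.076 at 3 weeks and -0.049, 0.037 and 0.023 at 8 weeks. Not every library correlated best with its own number, but groups of 3 libraries are too small to exclude a pairing. With the replicate block 16 members were called at 3 weeks, 53 at 8 weeks, 9 for the interaction, 9 between ages at NT and 0 between ages at HT, where the adjusted p of the 4 lay between 0.052 and 0.083. Under the block PGSC0003DMG400015267 at 3 weeks (2.95) and PGSC0003DMG400045370 at 3 and 8 weeks (1.73 and -3.60) were called, and PGSC0003DMG400015287 (2.04) was not.

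Of 1813 values of the members and the named transcripts of related lists under the alternatives 1664 kept direction and side of the threshold, 106 lost the call, 20 gained it and 23 turned their sign. All 23 were values not called to begin with, and the cause was not tested. For ethylene-responsive proteinase inhibitor 1 PGSC0003DMG400003056 between ages at HT they were -0.29 with DESeq2 size factors, -0.30 with TMM, -0.12 with the block, -0.26 without HT replicate 1 of 3 weeks and -0.62 without HT replicate 3 of 8 weeks, in a range up to 0.43. Also between ages at HT, PGSC0003DMG400009514 was at -1.05 without HT replicate 1 of 8 weeks (range up to 2.12), and without HT replicate 3 of 8 weeks PGSC0003DMG400045370 was at -1.49 (up to 1.60) and patatin 3 PGSC0003DMG400010022 at -0.41 (up to 0.90). PGSC0003DMG400024537 was at 0.19 with the other choice of shift and at 0.038 and 0.097 without HT replicates 1 and 2 of 8 weeks (down to -0.56). Between ages at NT, PGSC0003DMG400010022 was at -0.20 and -0.89 and PGSC0003DMG400024537 at -0.035 and -0.70 with DESeq2 size factors and TMM. The interaction of PGSC0003DMG400010022 was 0.36 with DESeq2 size factors, 1.06 with TMM, 0.23 and 0.048 without HT replicates 1 and 2 of 8 weeks, 0.16 without NT replicate 1 of 3 weeks and 0.23 without NT replicate 3 of 8 weeks, in a range down to -1.07. That of PGSC0003DMG400024537 was 0.31 with TMM.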
